A study of Mus musculus with 55 samples.

Results

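The collagen gene family was taken as every gene of the expression table whose symbol consists of Col, a number, the letter a and a number, which gave 44 of 24453 genes. Of these 44, 31 had a mean of at least 0.5 RPKM (reads per kilobase of transcript and per mega-read mapped) over all libraries and were tested, and 13 lay below that level. RNA was sequenced from 3 muscles of the mouse hindlimb, in 55 libraries: the flexor digitorum brevis (FDB), a small muscle of the foot, the extensor digitorum longus (EDL), a fast muscle of the lower leg, and the soleus (SOL), an oxidative muscle of the calf with many slow fibres. The mice were wild type or mdx and were 2 or 5 months old, which makes 12 groups. The mdx mouse carries a mutation of Dmd in its germ line, so full-length dystrophin is missing from every cell, and the labels name no other allele, transgene, drug or agent in any group. The sources used here do not give the strain of the mice, their sex or any pooling of muscles. FDB was represented by 4 wild-type and 3 mdx libraries at 2 months and by 4 and 7 at 5 months. EDL had 4 and 4 libraries at 2 months and 4 and 6 at 5 months, and SOL had 4 and 4, then 4 and 7. The labels do not say that the libraries of a group came from separate animals, and a p-value here therefore reflects only the library-to-library spread, part of which may be technical. The comparisons ask how far collagen expression in dystrophic muscle departs from wild type, and whether this depends on the muscle and on the age.

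Collagens are secreted proteins whose chains wind into a triple helix and assemble outside the cell. In muscle, types I, III and V form the fibrils of the connective tissue around fibres and fascicles and of the tendon, type IV forms the sheet of the basement membrane that encloses each fibre and each vessel, and type VI forms beaded filaments that link that membrane to the fibrils. Most fibrillar and type VI collagen of muscle is made by fibroblasts and related progenitors rather than by muscle fibres, and its accumulation is the fibrosis seen in muscular dystrophy.

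Depth was read from the steps between low RPKM values and came to 20.1 to 66.0 mega-reads per library, with a median of 50.1. Dmd was lower in mdx than in wild type without overlap in all 6 pairs of groups, by 1.41 to 1.65 on the log2 scale. The myosins fitted the labelled muscles, with Myh4 of fast fibres at a mean of 9430 RPKM in wild-type EDL and Myh7 of slow fibres at 1750 RPKM in wild-type SOL at 2 months. Library IDs were divided here into 3 runs, called ID blocks, which start at ns01, ns49 and ns54. These cuts are not given by the labels. The later blocks held only mdx libraries of 5 months, 11 of them in the third, so block values are given beside the main 5-month results. All wild-type libraries lay in the first block. A block value therefore sets the 5-month mdx libraries of that block against wild type of the first. SOL had no 5-month mdx library in the first block, so its mdx effect at 5 months cannot be told apart from the block. An mdx FDB library of 5 months (ns57) held skin epithelium markers (Krt1, Krt5, Krt10, Krt14 and Dsp) at a summed 378 RPKM, against a median of 1.62 in its group, and the highest Col17a1 of all libraries. A wild-type SOL library (ns29) and a wild-type EDL library (ns47), both of 5 months, had the lowest levels of the tendon gene Tnmd, 0.144 and 0.542 RPKM, and were also the lowest of their groups in Col1a1. Because these are bulk samples, fewer cells of a type and less RNA per cell cannot be told apart.

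In wild-type muscle of 2 months, Col1a1, Col1a2 and Col3a1 made up most of the collagen total. The summed level of all 44 genes was 1590 ± 320 RPKM in FDB, 1420 ± 213 in EDL and 750 ± 115 in SOL (SD, n = 4 each). FDB and EDL differed by less than their spread, and SOL lay below both. Fibril-forming chains held 81.1% of that sum in FDB, 81.9% in EDL and 69.2% in SOL, and basement membrane chains 4.42%, 5.12% and 13.1%. By 5 months the wild-type sums were 456 ± 40.7 RPKM in FDB, 242 ± 54.4 in EDL and 192 ± 68.2 in SOL. In mdx muscle the sum at 2 months reached 2230 ± 371 RPKM for FDB (n = 3), 1680 ± 161 for EDL and 1370 ± 148 for SOL (n = 4 each). At 5 months it was 1050 ± 67.6 (n = 7), 932 ± 252 (n = 6) and 716 ± 127 (n = 7). Fibril-forming chains then held 73.5%, 66.9% and 65% of the mdx sum, against 66.4%, 53.7% and 48.1% in wild type of the same age. The summed level was thus highest in young muscle of either genotype, and the ratio of the mdx to the wild-type mean was larger at 5 than at 2 months in each muscle.

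**Figure D1:**
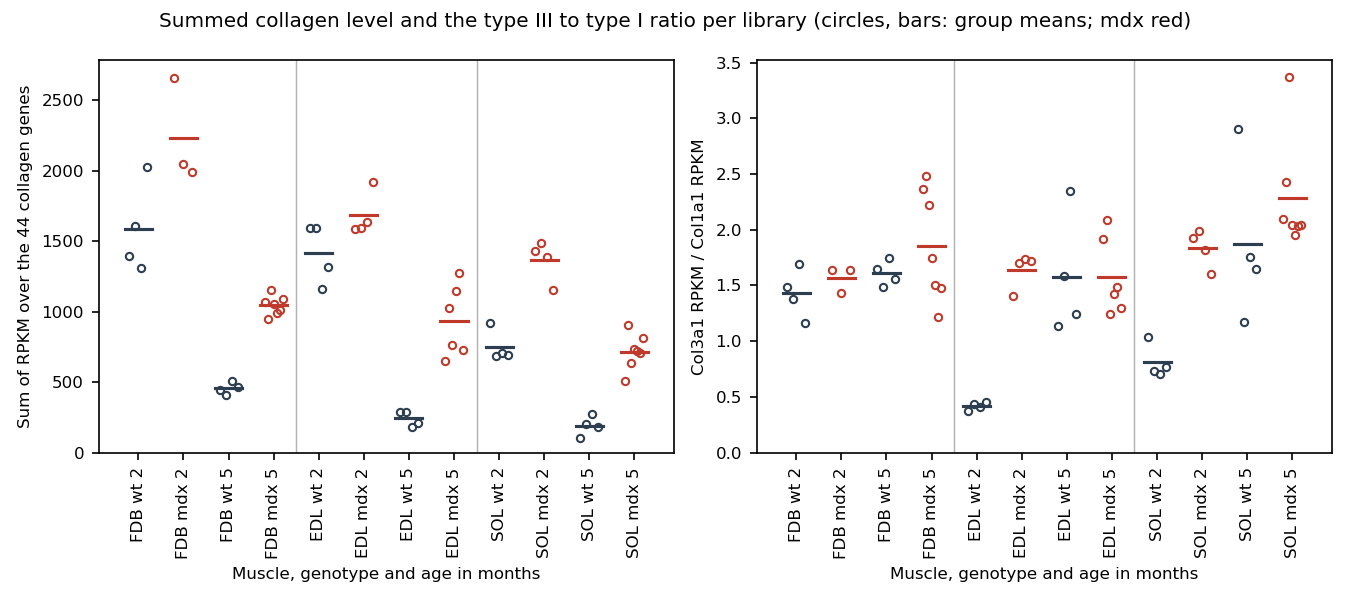
Summed RPKM of the 44 collagen genes and the ratio of Col3a1 to Col1a1, 1 point per library, by muscle, genotype and age. The sums fell from 2 to 5 months in both genotypes, to 192 RPKM in wild-type SOL and 716 RPKM in mdx SOL on average, and the ratio separated the genotypes at 2 months in EDL (0.419 and 1.64) and SOL (0.813 and 1.83).

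The wild-type muscles differed in single chains. Col9a1, a chain of type IX collagen known from cartilage, where it decorates the surface of fibrils, stood at 11.4, 13.6, 12.8 and 10.1 RPKM in the 4 FDB libraries of 2 months, at 0.812, 0.973, 1.25 and 1.38 in EDL and at a mean of 0.0689 in SOL. No FDB library came near those of the other muscles, and the FDB level was 2.63 log2 units above EDL (adjusted p = 2.76e-25) and 3.60 above SOL (adjusted p = 9.38e-31). Col6a6, an alternative chain of type VI collagen, ran the other way, with means of 2.15 RPKM in EDL, 0.468 in SOL and 0.121 in FDB. Its log2 difference was -1.48 between FDB and EDL (adjusted p = 1.97e-16) and -1.09 between SOL and EDL (adjusted p = 4.5e-12). Col24a1, a minor fibril-forming chain, followed the order FDB, EDL, SOL with means of 4.55, 1.9 and 0.87 RPKM, and neighbours in this order did not overlap. Col8a1, a short-chain network collagen of vessels, was higher in SOL than in EDL by 1.16 (adjusted p = 1.28e-07), and its 4.59 RPKM in FDB and 6.42 in SOL overlapped. The SOL mean was raised by the library ns25, at 10.9 RPKM against 5.51, 4.68 and 4.56 in the others, all above the 1.69 to 2.66 of EDL. Col15a1, a basement membrane multiplexin, was lower in FDB than in both other muscles, with log2 differences of -0.75 and -0.71, whereas its EDL and SOL libraries overlapped.

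At 2 months, 28 of the 31 tested chains differed between the wild-type muscles in an F test, 90.3% against 86% of all genes tested, and again 28 did at 5 months, against 84.9%, so the share in collagens was near that of the transcriptome. FDB was above EDL in 17 and below in 4 (backgrounds 56.7% and 15%) and above SOL in 22 and below in 5 (52.2% and 18.1%). SOL was above EDL in 4 and below in 12 (32.5% and 19.8%). At 5 months these counts were 20 and 2 (57.6% and 15.1%), 23 and 3 (49.5% and 19%), and 2 and 11 (36.7% and 17.7%). The median of the tested collagens relative to that of all genes was 0.13, 0.49 and -0.29 log2 units at 2 months. Collagens were therefore placed lower in SOL against both other muscles than the average gene was.

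**Figure D2:**
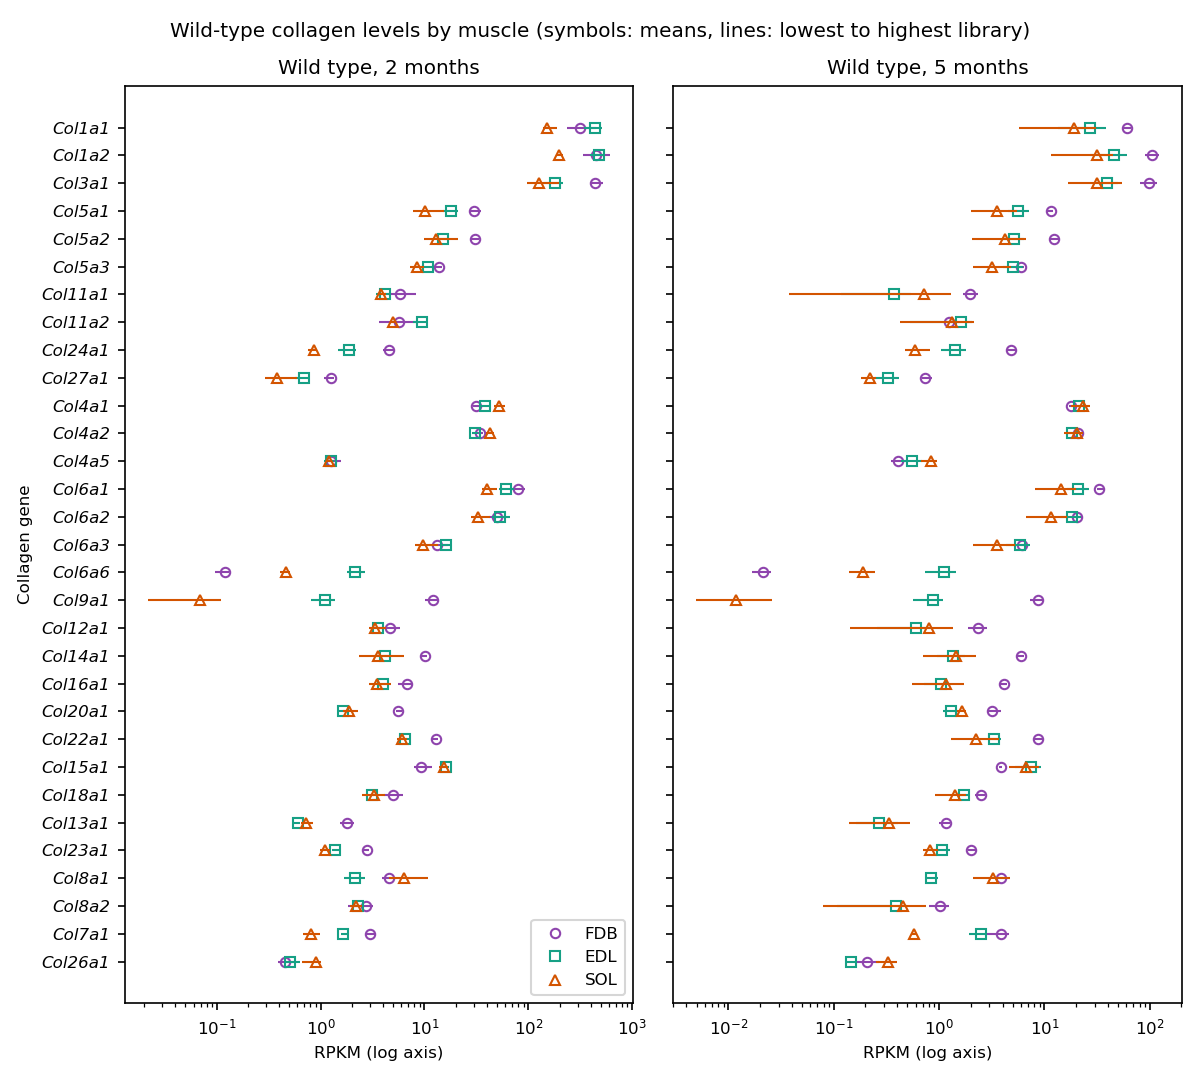
Mean RPKM of the tested collagen chains in wild-type FDB, EDL and SOL at 2 and 5 months (log axis), with lines from the lowest to the highest of 4 libraries. Col9a1 stands apart in FDB (12 RPKM at 2 months, against 1.10 in EDL), and Col6a6 in EDL (2.15 RPKM).

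In mdx muscle most tested collagen chains were raised, except in FDB of 2 months, and more of them were raised at 5 than at 2 months. Of the 31 tested, 10, namely Col5a1, Col5a3, Col27a1, Col4a1, Col4a2, Col4a5, Col6a1, Col6a2, Col6a3 and Col15a1, rose in all 6 comparisons of mdx with wild type, and 29 rose in at least 1. In at least 1 comparison, 6 fell (Col1a2, Col11a1, Col11a2, Col9a1, Col20a1 and Col22a1), and 4 of these rose in another. The shares of all genes with these patterns were not computed, so these counts alone show no excess over the average gene. At 2 months the numbers of chains that rose and fell were 13 and 2 in FDB (41.9% and 6.45%, against 30% and 4.6% of all genes tested), 20 and 4 in EDL (64.5% and 12.9%, against 41.6% and 8.69%) and 17 and 3 in SOL (54.8% and 9.68%, against 32.3% and 7.68%). At 5 months they were 25 and 1 in FDB (80.6% and 3.23%, against 53.1% and 9.46%), 29 and 1 in EDL (93.5% and 3.23%, against 60.2% and 8.52%) and 24 and 0 in SOL (77.4% and 0%, against 52.9% and 11.3%). The median log2 difference of the tested collagens was 0.38, 0.50 and 0.43 at 2 months in FDB, EDL and SOL, where that of all genes was 0.125, 0.138 and 0.099. At 5 months it was 0.63, 1.07 and 0.82, and that of all genes 0.178, 0.229 and 0.178. With quantile scaling of the libraries the split at 2 months became 18 higher and 7 lower in EDL and 14 and 7 in SOL. Without 1 mdx FDB library of 2 months (ns01), 7 in place of 15 chains passed in FDB, and Col5a1, Col27a1, Col4a5, Col6a1, Col6a2 and Col15a1 missed the threshold there (adjusted p = 0.0609 to 0.114). In the same muscle Col6a1 was also lost without ns11 (0.0809), Col27a1 without ns04 or ns11 (0.0668 and 0.0995) and Col15a1 without ns02, ns10 or ns11 (0.0595 to 0.0713). Shares of all genes called were not computed for quantile scaling or with a library left out.

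**Figure D3:**
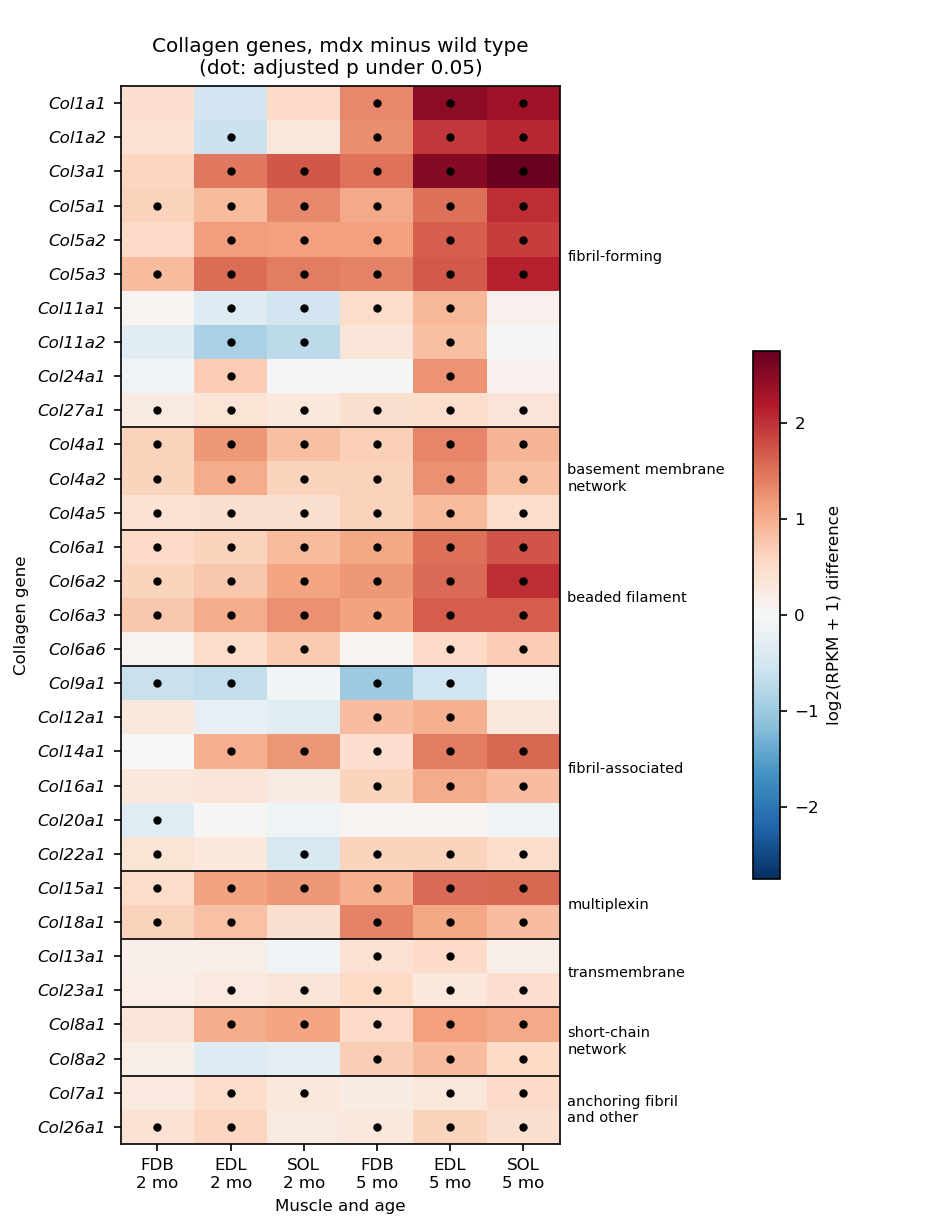
Log2 difference (mdx minus wild type, of log2(RPKM + 1)) of the 31 tested collagen chains, grouped by class, in FDB, EDL and SOL at 2 and 5 months, with a dot where the adjusted p was under 0.05. Rises fill the basement membrane rows and those of Col6a1, Col6a2 and Col6a3 at both ages, whereas in EDL the type I and type XI rows turn from negative values at 2 months (Col1a2 -0.59) to rises at 5 months (1.95). Under quantile scaling, Col23a1 and Col7a1 in EDL at 5 months change sign, to -0.05 and -0.02.

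Among the 10 tested fibril-forming chains, Col3a1, the chain of type III collagen of the finer fibrils around muscle fibres, rose in mdx EDL and SOL at 2 months. Col1a1 and Col1a2, which together build type I collagen, the main fibre of tendon and fascia, had lower means in mdx EDL of that age and higher means in mdx FDB and SOL, and of these differences the one of Col1a2 in EDL passed the test. These chains carry the finding, so the 250 bases before the annotated starts of Col1a2 and Col3a1 are shown (RefSeq, GRCm38.p6), both on the plus strand, at chr6:4505368-4505617 and chr1:45311288-45311537. Capitals mark, in either orientation, the GC box as GGGCGG, the CCAAT box, the TATA box as TATAAA, and the Smad-type element as CAGACA.
Col1a2: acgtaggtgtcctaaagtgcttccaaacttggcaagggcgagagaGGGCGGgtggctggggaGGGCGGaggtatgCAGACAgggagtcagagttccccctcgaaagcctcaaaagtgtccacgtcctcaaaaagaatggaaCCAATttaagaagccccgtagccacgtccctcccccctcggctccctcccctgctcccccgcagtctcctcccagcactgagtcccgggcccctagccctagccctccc
Col3a1: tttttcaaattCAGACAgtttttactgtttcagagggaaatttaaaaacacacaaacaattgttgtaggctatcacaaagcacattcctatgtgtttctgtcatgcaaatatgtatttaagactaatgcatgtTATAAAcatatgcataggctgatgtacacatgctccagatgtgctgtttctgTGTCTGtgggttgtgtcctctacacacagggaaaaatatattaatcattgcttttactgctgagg
The Col1a2 stretch is 62.0% G and C and holds GGGCGG at -205 and -188, CAGACA at -175 and CCAAT at -109, whereas the Col3a1 stretch is 35.2% G and C and holds TATAAA at -117 and CAGACA at -239 and, reversed, at -65. Over both strands, GGGCGG lay in 57.9% of 38 collagen starts and 32.7% of 32851 promoters of the table, CCAAT in 34.2% and 33.8%, TATAAA in 13.2% and 12.4%, and CAGACA in 23.7% and 17.1%. These letters are matches only and do not show that a factor binds.

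Col1a1 (chr11:94936224-94953042, mm10) measured 516, 495, 346 and 384 RPKM in the 4 wild-type EDL libraries of 2 months and 295, 275, 274 and 352 in the 4 mdx ones. The groups overlapped by 1 library, and the difference of -0.53 ± 0.292 (SE) missed the threshold (adjusted p = 0.129). In FDB it measured 263, 319, 235 and 451 RPKM in wild type and 519, 399 and 364 in mdx (adjusted p = 0.261), and in SOL 190, 142, 139 and 139 against 225, 225, 219 and 196 (adjusted p = 0.158). The FDB groups overlapped, and the SOL groups did not, although the wild-type SOL library at 190 lay close to the lowest mdx one. At 5 months the mdx libraries were higher in every muscle. Wild-type EDL read 38.1, 31.4, 13.4 and 24.9 RPKM and mdx EDL 87.5 to 221 with a median of 136, a rise of 2.45 ± 0.267 (adjusted p = 1.09e-10). Wild-type SOL read 5.78, 23.5, 30.8 and 16.4 RPKM and mdx SOL 55.5 to 110 with a median of 98.2, a rise of 2.33 ± 0.259 (adjusted p = 2.19e-10). Wild-type FDB read 59.8, 54.1, 67.0 and 64.3 RPKM and mdx FDB 118 to 181 with a median of 158, a rise of 1.32 ± 0.259 (adjusted p = 2.38e-05). No mdx library of 5 months overlapped the wild type of its muscle. With the mdx libraries of each ID block taken alone, the rises were 1.15 and 1.44 for FDB, 2.12 and 2.62 for EDL and 2.15 and 2.58 for SOL. The wild type was of the first block throughout, so only the first values of FDB and EDL compare libraries of the same block.

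Col1a2 was the more abundant chain of type I. In EDL of 2 months it read 552, 525, 395 and 466 RPKM in wild type and 318, 295, 301 and 363 in mdx, without overlap. This fall of 0.59 on the log2 scale (SE 0.242, adjusted p = 0.0372) was lost without the filter on low genes (adjusted p = 0.0571) and when any 1 of 6 EDL libraries (ns33, ns34, ns35, ns41, ns42, ns44) was left out (0.0532 to 0.0971). In FDB of the same age its libraries read 362, 462, 337 and 615 RPKM in wild type and 682, 556 and 506 in mdx, and in SOL 216, 194, 200 and 188 against 263, 266, 239 and 224. Neither passed, although the SOL groups did not overlap (adjusted p = 0.213 and 0.318). At 5 months Col1a2 rose in all 3 muscles, from 100, 89.8, 122 and 106 RPKM to 224 to 279 (median 259) in FDB, from 60.6, 54, 26.8 and 42.1 to 106 to 257 (median 171) in EDL, and from 11.6, 37.3, 45.2 and 31.2 to 82.1 to 148 (median 120) in SOL. The rises were 1.27, 1.95 and 2.07 on the log2 scale, with adjusted p of 1.73e-06, 2.8e-10 and 3.56e-11.

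Col3a1 (chr1:45311538-45349706) gave the largest rise of any tested collagen in SOL at 2 months and in all 3 muscles at 5 months. At 2 months its EDL libraries read 193, 216, 143 and 173 RPKM in wild type and 416, 468, 476 and 607 in mdx, a rise of 1.44 ± 0.25 (adjusted p = 6.09e-06). Its SOL libraries read 197, 104, 97.7 and 107 against 435, 448, 398 and 315, a rise of 1.70 ± 0.25 (adjusted p = 6.87e-07). Both muscles separated without overlap, even with the wild-type SOL library at 197. In FDB it read 390, 441, 396 and 525 RPKM against 850, 570 and 595, which did not overlap either but missed the threshold (0.60 ± 0.271, adjusted p = 0.0776). At the later age it rose from 98.3, 80.3, 117 and 100 RPKM to 220 to 350 (median 268) in FDB, by 1.49 ± 0.222. In EDL it rose from 43.5, 49.9, 31.3 and 31.1 to 152 to 328 (median 227), by 2.50 ± 0.229, and in SOL from 16.8, 27.5, 54.0 and 27.0 to 118 to 265 (median 201), by 2.72 ± 0.222. The adjusted p were 1.72e-07, 1.2e-12 and 6.55e-14, and the ratios of group means 2.83, 5.98 and 6.35.

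The ratio of Col3a1 to Col1a1 within a library, which is independent of the library's scaling, put the pair side by side. At 2 months its mean was 0.419 in wild-type and 1.64 in mdx EDL, and 0.813 and 1.83 in SOL, without overlap in either muscle. Each difference gave p = 0.0286 in a two-sided exact permutation test, the smallest that 4 against 4 libraries allow, and 0.0839 after adjustment over the 36 ratio tests made. In FDB of 2 months the ratio was 1.43 in wild type and 1.57 in mdx (exact permutation p = 0.4). At 5 months the groups overlapped in every muscle, with means of 1.61 and 1.86 for FDB, 1.58 and 1.58 for EDL and 1.87 and 2.28 for SOL (exact permutation p = 0.43, 0.895 and 0.221). In wild-type EDL of 2 months Col3a1 made up 12.8% of the collagen sum and Col1a1 30.6%, and in mdx EDL 29.1% and 17.7%.

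**Figure D4:**
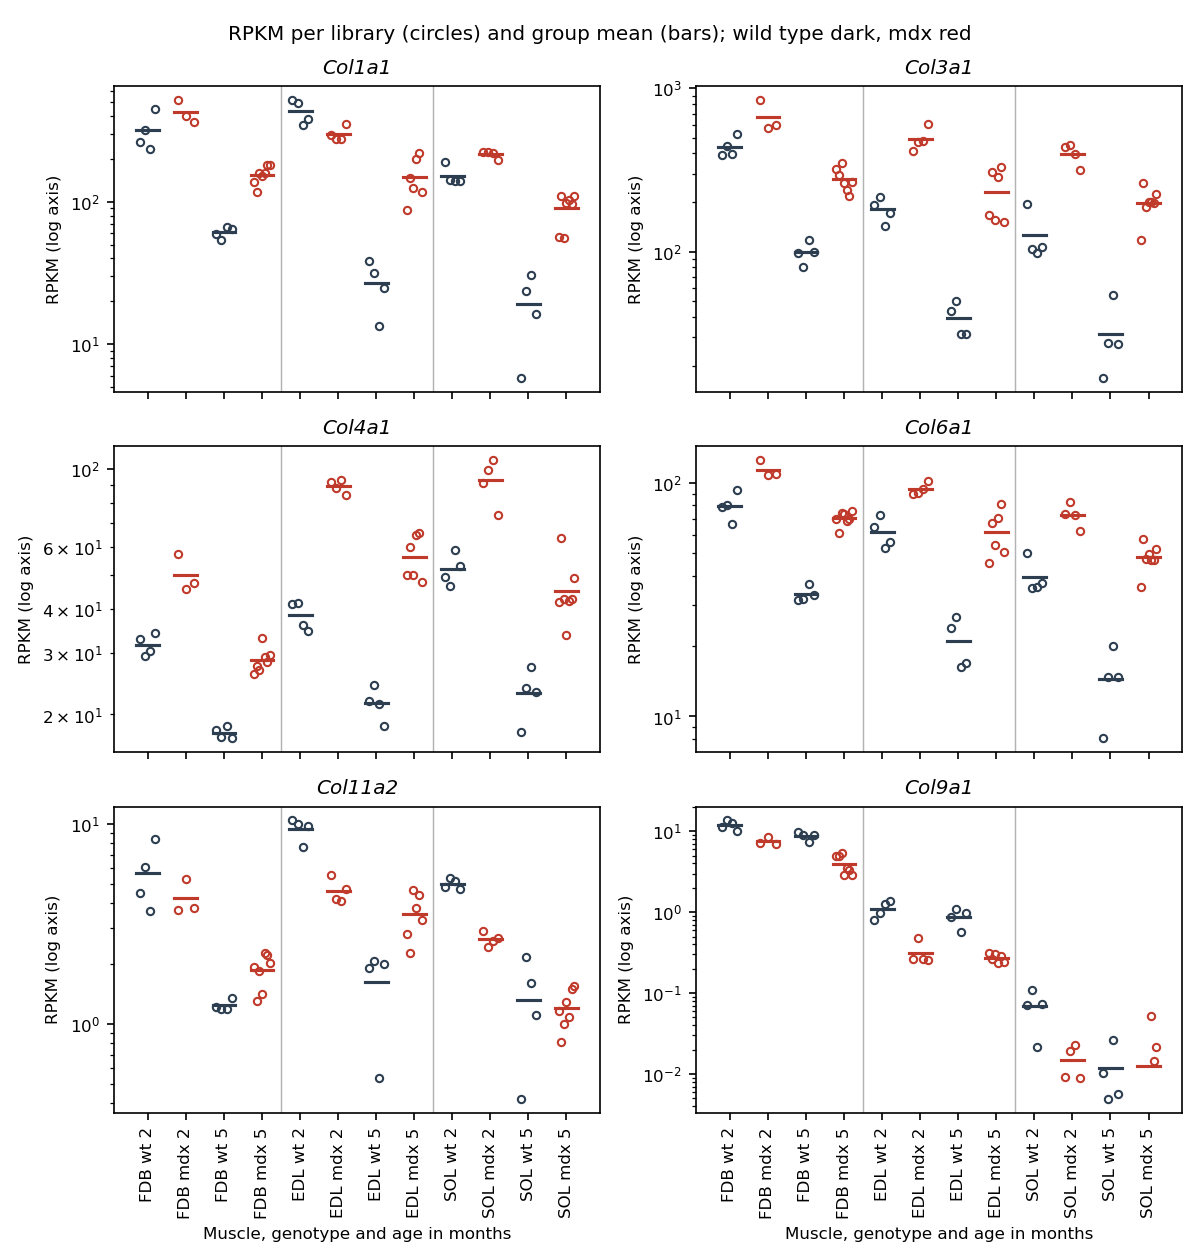
RPKM per library (log axis) of Col1a1, Col3a1, Col4a1, Col6a1, Col11a2 and Col9a1 by muscle, age and genotype. Col1a1 of wild-type EDL falls from 346 to 516 RPKM at 2 months to 13.4 to 38.1 at 5 months, whereas mdx EDL remains at 87.5 to 221, and 4 mdx SOL libraries of 5 months with Col9a1 at 0 are not drawn.

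Type V collagen, which starts fibrils and sets their width, rose alongside type III. Col5a3 (chr9:20770050-20815067, minus strand) had the largest rise of all tested chains in EDL at 2 months. There it read 11.3, 11.7, 11.3 and 8.93 RPKM in wild type and 32.5, 33.2, 33.1 and 33.9 in mdx, a rise of 1.54 ± 0.159 (adjusted p = 1.28e-10). The mdx libraries lay within a narrow range far above the wild type. In FDB of 2 months Col5a3 read 14.6, 13.9, 14.2 and 12.1 RPKM against 29.6, 22.9 and 25.4 (0.87 ± 0.171, adjusted p = 0.000255), and in SOL 9.89, 8.14, 8.75 and 7.29 against 25, 25.7, 24.4 and 21.3 (1.40, adjusted p = 3.48e-09). By 5 months the rise was 1.36 in FDB, 1.69 in EDL and 2.13 in SOL, where the wild-type libraries read 2.1, 2.82, 4.84 and 3.06 RPKM and the mdx ones 12.7 to 28.0 with a median of 15.6. Again no library overlapped. Col5a1 rose in all 6 comparisons, by 0.64, 0.88 and 1.33 at 2 months and 1.05, 1.52 and 2.02 at 5 months in FDB, EDL and SOL. Col5a2, whose gene lies tail to tail with Col3a1 at a distance of 24614 bases on mm10, rose in all but FDB of 2 months (0.53, adjusted p = 0.0511), by 1.12 to 1.90.

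The chains of type XI collagen, a relative of type V best known from cartilage, were lower in mdx EDL at 2 months and higher there at 5 months, whereas the calls were falls at 2 months in SOL and a rise of Col11a1 at 5 months in FDB. Col11a2 (chr17:34039437-34066685) read 10.4, 10, 7.69 and 9.77 RPKM in wild-type EDL of 2 months and 5.52, 4.19, 4.11 and 4.7 in mdx, a difference of -0.89 ± 0.187 (adjusted p = 9.87e-05). In SOL it read 4.83, 5.37, 5.15 and 4.74 against 2.91, 2.41, 2.59 and 2.69 (-0.72 ± 0.187, adjusted p = 0.00175). The mdx libraries of both muscles were thus below all of the wild type, and in FDB the groups overlapped (adjusted p = 0.253). At 5 months mdx EDL was the higher one, with 2.25 to 4.69 RPKM and a median of 3.55, against 1.89, 2.06, 0.535 and 1.98 in wild type (0.82 ± 0.171, adjusted p = 4.88e-05). With the mdx EDL libraries of the first ID block alone this rise was 0.48 and missed the threshold (adjusted p = 0.0697). In FDB of 5 months Col11a2 read 1.21, 1.19, 1.19 and 1.35 RPKM in wild type and 1.3 to 2.27 in mdx (0.34, adjusted p = 0.0706), and in SOL 0.421, 2.15, 1.59 and 1.1 against 0.806 to 1.55 (-0.03, adjusted p = 0.902). Both pairs of groups overlapped. Col11a1 fell in SOL of 2 months, from 3.75, 3.64, 4.27 and 3.74 RPKM to 2.76, 2.29, 2.21 and 2.26 (-0.52, adjusted p = 0.00608), and in EDL from a mean of 4.15 to 3 (-0.36, adjusted p = 0.0477). It rose at 5 months in FDB (0.51, adjusted p = 0.00126; 0.19 and 0.231 with quantile scaling) and in EDL (0.92, adjusted p = 2.49e-07), but its 0.715 and 0.791 RPKM in SOL did not separate. The call in EDL of 2 months was lost without any 1 of 6 libraries (ns34, ns35, ns36, ns41, ns42, ns44; adjusted p = 0.0771 to 0.116), and with a pseudocount of 0.1 the calls in EDL and SOL of that age were both lost (0.28 and 0.118).

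The remaining fibril-forming chains were low. Col24a1 (chr3:145292472-145552011) changed in EDL alone among the muscles, where it read 2.19, 1.46, 1.76 and 2.21 RPKM in wild type and 3.69, 3.38, 4.36 and 3.24 in mdx at 2 months (0.69 ± 0.116, adjusted p = 3.71e-06). At 5 months it read 1.4, 1.8, 1.04 and 1.43 against 3.45 to 6.03 with a median of 4.64 (1.23 ± 0.106, adjusted p = 2.06e-13). Its FDB means of 4.55, 4.12, 4.83 and 4.62 RPKM (wild type and mdx of 2 months, then of 5 months) and its SOL means of 0.87, 0.817, 0.595 and 0.742 showed no call. With mdx SOL libraries of the third ID block its 5-month difference was 0.34 (adjusted p = 0.00601), and with those of the second -0.06. Col27a1 rose in all 6 comparisons by 0.24 to 0.49, from wild-type means of 0.223 to 1.26 RPKM. With quantile scaling 3 of these calls were lost, in FDB and SOL of 2 months (0.06 and 0.10, adjusted p = 0.521 and 0.164) and in SOL of 5 months (0.11, adjusted p = 0.0541). The FDB call of 2 months was also lost with a pseudocount of 0.1 (adjusted p = 0.0989) and with median-of-ratios scaling (0.147).

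The 3 tested chains of the basement membrane network rose in every muscle at both ages. Col4a1 and Col4a2 form the common trimer of type IV collagen, and their genes lie head to head on mm10, with annotated starts that overlap by 22 bases. That overlap, at chr8:11312805-11312826 on the plus strand of GRCm38.p6, is shown because both genes begin in it, with GGGCGG in capitals.
Col4a1 and Col4a2 start: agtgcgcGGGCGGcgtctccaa
Col4a1 read 41.2, 41.5, 36.0 and 34.5 RPKM in wild-type EDL of 2 months and 91.8, 88.5, 92.8 and 84.4 in mdx, a rise of 1.20 ± 0.122 (adjusted p = 9.58e-11). It read 49.4, 46.5, 59.0 and 53.1 against 91.5, 99.5, 106 and 74.2 in SOL (0.82) and 32.8, 29.3, 30.3 and 34.2 against 57.2, 45.5 and 47.5 in FDB (0.64). The groups of each muscle stood apart. At 5 months wild-type FDB, EDL and SOL read 17.1 to 18.5, 18.6 to 24.2 and 17.8 to 27.3 RPKM, and mdx 26 to 33.0 (median 28.3), 47.7 to 65.6 (54.9) and 33.6 to 63.8 (42.6). The rises were 0.66, 1.34 and 0.93, again without overlap. In EDL the rise was 1.31 with mdx libraries of the first ID block and 1.35 with those of the third.

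Col4a2 went with it. In FDB of 2 months it read 35, 32.6, 32.5 and 36.6 RPKM in wild type and 59.3, 48.5 and 50.5 in mdx, in EDL 32.9, 32.3, 29.3 and 28.5 against 64.1, 62.3, 65.2 and 59.4, and in SOL 42.8, 39, 46.8 and 42.5 against 65.8, 70.9, 73.5 and 55.5. All mdx libraries lay above all wild-type libraries of their muscle, with rises of 0.61, 1.01 and 0.62. In the older groups it rose from 20.6 to 21.1 RPKM to 29.8 to 38.2 (median 32.2) in FDB, from 16.4 to 20 to 37 to 53.4 (43.9) in EDL and from 15.3 to 23.4 to 28.8 to 48.2 (35.8) in SOL, by 0.64, 1.26 and 0.82. The Col4a2 to Col4a1 ratio was 0.803 in wild-type and 0.702 in mdx EDL of 2 months and 0.825 and 0.719 in SOL (exact permutation p = 0.0286 each, adjusted 0.0839 over the 36 ratio tests). In FDB of that age it was 1.08 and 1.05 (exact permutation p = 0.0571). At 5 months the groups overlapped in FDB, EDL and SOL (exact permutation p = 0.536, 0.181 and 0.127). Col4a5, on the X chromosome and part of a trimer best known from kidney, rose by 0.39, 0.44 and 0.43 at 2 months and 0.63, 0.87 and 0.48 at 5 months. Quantile scaling ended its call in FDB of 2 months (0.20, adjusted p = 0.0812). Of the other type IV chains, Col4a3, Col4a4 and Col4a6 stayed below the filter.

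Of the 4 tested beaded filament chains, Col6a1, Col6a2 and Col6a3 rose in all 6 comparisons, and these are the chains whose loss causes human collagen VI myopathies. Col6a1 read 78.5, 80.6, 66.6 and 93.5 RPKM in wild-type FDB of 2 months and 125, 108 and 109 in mdx (0.52, adjusted p = 0.0216). In EDL it read 64.6, 72.8, 52.5 and 56.0 against 90, 90.3, 94.5 and 102 (0.62), and in SOL 50.1, 35.6, 35.8 and 37.3 against 73.7, 82.6, 73.1 and 62.5 (0.87). The mdx libraries were the higher ones throughout. Older mdx muscle showed a rise of 1.06 in FDB, from a mean of 33.3 ± 2.48 to 61.1 to 76.0 (median 69.8), by 1.51 in EDL, from 21.0 ± 5.16 to 45.3 to 81.0 (60.7), and by 1.72 in SOL, from 8.06, 14.8, 20.1 and 14.7 to 36.0 to 57.6 (47.1). With the mdx libraries of each ID block taken alone, the rise was 1.01 and 1.09 for FDB, 1.39 and 1.57 for EDL and 1.70 and 1.75 for SOL.

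Col6a2 had the steepest rise of type VI, in SOL of 5 months, from 6.64, 11.5, 16.3 and 11.8 RPKM to 41.2 to 63.2 with a median of 45.7 (2.02, adjusted p = 1.16e-14). At 2 months its SOL libraries read 43.1, 27.9, 29.4 and 31.7 against 68.3, 80.4, 73.4 and 59.1 (1.08), its EDL libraries 54.5, 66, 45.1 and 46.1 against 83.5, 85.2, 87 and 96.1 (0.74) and its FDB libraries 47.6, 48.4, 41.5 and 61 against 84.5, 71.5 and 73.4 (0.62). None of these groups overlapped. In older muscle it rose from 19 to 22.5 RPKM to 43.5 to 54.5 (median 48.4) in FDB and from 14 to 22.4 to 40 to 73.5 (55.1) in EDL, by 1.19 and 1.55. Col6a3 read 11.9, 13.2, 11 and 16.9 RPKM in wild-type FDB of 2 months and 23.4, 22.7 and 21.8 in mdx (0.75, adjusted p = 0.00402), the second largest rise there after Col5a3. Its EDL libraries read 17.3, 18.5, 14.4 and 14.7 against 31.7, 32.3, 35.1 and 36.7 (1.03) and its SOL libraries 13.4, 8.12, 8.48 and 8.79 against 25.5, 28.1, 24.1 and 19.7 (1.26). Its rises at 5 months were 1.10, 1.66 and 1.67, to medians of 13.7, 20.5 and 14.2 RPKM. The groups of Col6a3 were separate in every muscle and at both ages. Col6a6 rose in EDL (0.50 and 0.52 at 2 and 5 months) and SOL (0.73 and 0.69), whereas its FDB level of at most 0.179 RPKM as a group mean gave no call. With quantile scaling the EDL value of 5 months was 0.17 and missed the threshold (adjusted p = 0.106). Median-of-ratios scaling ended the call of Col6a1 in FDB of 2 months (0.38, adjusted p = 0.0799).

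The 6 tested fibril-associated chains, which sit on the surface of fibrils, were the most mixed class, with 1, 1 and 1 rises and 2, 1 and 1 falls at 2 months in FDB, EDL and SOL, and 4, 4 and 3 rises and 1, 1 and 0 falls at 5 months. Col9a1 fell where it was expressed. In FDB of 2 months it read 11.4, 13.6, 12.8 and 10.1 RPKM in wild type and 7.08, 8.39 and 7.05 in mdx (-0.61 ± 0.118, adjusted p = 0.000228). At 5 months it read 9.85, 8.92, 7.29 and 8.92 against 2.85 to 5.41 with a median of 3.55 (-0.99 ± 0.0965, adjusted p = 1.26e-11). No mdx FDB library reached the wild-type level at either age. The 5-month difference was -0.66 with the mdx libraries of the first ID block, which read 4.95, 5.02 and 5.41 RPKM. It was -1.23 with those of the third, which read 2.85, 3.55, 3.31 and 2.87. In EDL it fell from 0.812, 0.973, 1.25 and 1.38 RPKM to 0.261, 0.48, 0.261 and 0.259 at 2 months (-0.67 ± 0.109) and from 0.883, 1.08, 0.563 and 0.977 to a median of 0.277 at 5 months (-0.55 ± 0.0994). In SOL all group means were at most 0.0689 RPKM, and 4 of 7 mdx libraries of 5 months were listed at 0. These 4 are the libraries of the second ID block, and the 3 of the third read 0.0519, 0.0146 and 0.0216 RPKM. Its partner chains Col9a2 and Col9a3 did not pass the filter, which was set on the mean over all libraries.

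Col9a1 has 2 annotated starts in the RefSeq table (GRCm38.p6), a distal one and one further into the gene, and the 250 bases before each are shown because the deposited values do not say which start was used. They lie on the plus strand at chr1:24177360-24177609 and chr1:24194953-24195202, and capitals mark the only match to the 4 motifs, a CCAAT at -18 of the second.
Col9a1 first start: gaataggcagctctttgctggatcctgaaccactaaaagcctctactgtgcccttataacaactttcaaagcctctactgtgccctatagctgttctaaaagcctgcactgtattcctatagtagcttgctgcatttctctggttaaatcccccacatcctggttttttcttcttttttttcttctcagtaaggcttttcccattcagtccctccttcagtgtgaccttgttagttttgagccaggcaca
Col9a1 second start: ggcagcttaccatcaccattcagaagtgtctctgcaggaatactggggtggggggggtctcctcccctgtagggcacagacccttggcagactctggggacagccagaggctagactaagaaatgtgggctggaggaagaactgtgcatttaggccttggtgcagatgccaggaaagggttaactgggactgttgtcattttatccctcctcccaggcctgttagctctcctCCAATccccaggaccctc
The stretches are 43.6% and 56.0% G and C.

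The other fibril-associated chains were as follows. Col22a1, a collagen of the junction between muscle and tendon, fell in SOL of 2 months from 6.71, 5.43, 6.82 and 5.44 RPKM to 4.43, 3.7, 4.55 and 4.31 (-0.43 ± 0.142, adjusted p = 0.0128). It rose in FDB at that age (0.38, adjusted p = 0.0466; 0.0585 to 0.114 when any 1 of the 7 libraries was left out) and at 5 months in FDB (0.62), EDL (0.62) and SOL (0.48). With the first ID block alone the EDL rise was 0.29 and missed the threshold (adjusted p = 0.109), and with the third alone it was 0.79. The SOL rise was 0.22 with quantile scaling (adjusted p = 0.0783), and the FDB rise of 2 months was also lost with that scaling, median-of-ratios scaling, a pseudocount of 0.1 and no filter (0.0701 to 0.203). Col20a1, a chain of this class with little known in muscle, fell in FDB of 2 months from 5.73, 5.45, 5.29 and 6.02 RPKM to 4.9, 4.29 and 3.65 (-0.33 ± 0.0996, adjusted p = 0.00896) and passed in no other comparison; without the mdx library ns04 it missed the threshold (0.0983). Neither fall left any overlap between the groups. Col14a1, found on fibrils of muscle connective tissue, rose in EDL (1 and 1.40 at 2 and 5 months) and SOL (1.21 and 1.58), with means of 4.15, 9.33, 1.35 and 5.36 RPKM in EDL and 3.59, 9.24, 1.44 and 6.47 in SOL. Its FDB rise at 5 months (0.46, adjusted p = 0.0441) was lost when any 1 of 9 libraries (ns08, ns13 to ns16, ns54 to ns57) was left out (0.0584 to 0.103), within the first ID block (0.32, adjusted p = 0.306) and under the other scalings, pseudocount and filter (0.0641 to 0.299). Col12a1, a chain of tendon and muscle fascia, rose at 5 months in FDB (0.85, adjusted p = 3.64e-06) and EDL (0.97, adjusted p = 4.54e-07) and missed the threshold in SOL (0.32, adjusted p = 0.0579). At 2 months it was not called in any muscle. Col16a1 rose at 5 months only among the 6 comparisons, by 0.61, 1.01 and 0.85 in FDB, EDL and SOL.

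The remaining classes followed the same direction without a fall. The multiplexins, proteoglycan collagens of basement membranes, rose in both tested members except for Col18a1 in SOL of 2 months. Col15a1 rose in all 6, from 16.1 to 35.8 RPKM in EDL and 15.6 to 37.7 in SOL at 2 months (1.11 and 1.20), and by 0.97, 1.56 and 1.57 at 5 months. Col18a1, the source of endostatin, missed the threshold in SOL of 2 months (0.44, adjusted p = 0.0559). In FDB of 2 months it rose by 0.64, a call lost without ns01 (0.61, adjusted p = 0.0553). In FDB of 5 months it read 2.41, 2.2, 2.72 and 2.63 RPKM in wild type, 4.66, 4.42 and 5.58 in the mdx libraries of the first ID block and 13.1, 11, 10.1 and 10.8 in those of the third. The pooled rise of 1.36 ± 0.167 (adjusted p = 2.53e-09) was 0.75 with the mdx libraries of the first block and 1.81 with those of the third. Every mdx library was above every wild-type one. Of the transmembrane collagens, Col23a1 rose in all but FDB of 2 months, by 0.26 to 0.54 (in EDL of 2 months lost without any 1 of ns33, ns35, ns36, ns42, ns43 and ns44, adjusted p = 0.0529 to 0.093), and Col13a1, which helps to build the neuromuscular junction, in FDB and EDL of 5 months (0.39 and 0.52). The short-chain Col8a1 rose in all but FDB of 2 months, by 0.52 to 1.12, reaching 14 RPKM in mdx SOL of 2 months. Its partner Col8a2 rose at 5 months, by 0.68, 0.84 and 0.55, and stood at -0.35 in EDL of 2 months (adjusted p = 0.0593). Col7a1, known from the anchoring fibrils of skin, rose in EDL and SOL at both ages, by 0.28 to 0.53. Its call in SOL of 2 months was lost without any 1 of ns17, ns18, ns19, ns26 and ns27 (adjusted p = 0.0552 to 0.12), and that in EDL of 5 months without ns47 (0.0521). Col26a1 rose in all but SOL of 2 months (0.25, adjusted p = 0.0566), by 0.30 to 0.62. With quantile scaling its calls in FDB of both ages and in SOL of 5 months were lost (0.23, 0.07 and 0.19). Under that scaling Col23a1 in EDL and SOL of 2 months (0.02 and 0.13), Col7a1 in EDL and SOL of 2 months (0.24 and 0.08), Col13a1 and Col8a1 in FDB of 5 months (0.07 and 0.24) and Col15a1 in FDB of 2 months (0.38) also missed the threshold. Median-of-ratios scaling ended the calls of Col23a1 and Col7a1 in EDL of 5 months (0.16 and 0.13), of Col23a1 in EDL of 2 months (0.17), of Col7a1 in SOL of 2 months (0.23) and of Col15a1 in FDB of 2 months (0.38).

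The 13 chains below the filter were mostly those of other tissues. Col2a1 and Col10a1 of cartilage reached at most 1.29 and 0.136 RPKM in any library, and Col9a2 and Col9a3 at most 0.324 and 0.352. Col4a3 and Col4a4 of the kidney filter, whose genes lie head to head 71 bases apart, peaked at 0.832 and 0.726 RPKM, and Col4a6 at 0.215. Col6a4 and Col6a5 peaked at 0.0161 and 0.647, Col19a1 at 0.209 and Col25a1, a collagen of motor innervation, at 0.503. Col28a1, known from nonmyelinating glia around nerves, had its highest group mean in wild-type FDB of 2 months, 0.873 RPKM, the muscle in which the Schwann cell markers were also highest (285 to 392 RPKM summed, against 64.3 to 101 in EDL). Col17a1, a skin collagen, was at 1.59 RPKM in the library with the skin markers.

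From 2 to 5 months collagens fell in wild-type muscle far more often than the average gene. Of the 31 tested, 27 fell in FDB (87.1%, against 27.3% of all genes), 26 in EDL (83.9%, against 21.2%) and 24 in SOL (77.4%, against 13.7%), and 22 fell in all 3 muscles (share of all genes not computed). None rose in FDB or SOL (backgrounds 6.33% and 3.58%), and Col7a1 alone rose in EDL (0.41, adjusted p = 0.00472; background 2.57%). The median changes were -0.76, -0.98 and -1.14, beside -0.096, -0.1 and -0.073 for all genes. Col1a1 fell most in each muscle, by 2.31 ± 0.292 in FDB, 4.04 ± 0.292 in EDL and 3.13 ± 0.292 in SOL on the log2 scale, which is 5.17, 16.1 and 7.97 times in group means. Col1a2 changed by -2.05, -3.42 and -2.78 and Col3a1 by -2.14, -2.20 and -2.04, so that Col1a2 came next in EDL and SOL and Col3a1 in FDB. For Col11a1 the changes were -1.18, -1.91 and -1.56. Col4a1 fell less, by 0.80, 0.80 and 1.15, and Col6a1 by 1.23, 1.53 and 1.45. Col24a1 was not called in any muscle.

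In mdx muscle the same contrast gave 17 falls in FDB (54.8%, against 3.46% of all genes), 20 in EDL (64.5%, against 11.6%) and 23 in SOL (74.2%, against 20.2%), and no rise (backgrounds 2.42%, 6% and 20.6%). The medians were -0.45, -0.56 and -0.50, beside -0.023, -0.026 and -0.013. Col1a1 fell by 1.45 ± 0.285, 1.06 ± 0.267 and 1.31 ± 0.259, Col3a1 by 1.25, 1.14 and 1.02 and Col6a1 by 0.69, 0.63 and 0.60. For Col4a1, the falls of 0.79, 0.67 and 1.04 were close in size to those in wild type. Col9a1 fell in FDB of both genotypes, by 0.42 in wild type (adjusted p = 0.00288) and 0.79 in mdx (adjusted p = 1.93e-06). Without the library ns01 the count in mdx FDB was 9 in place of 17. The age change in mdx muscle compares libraries of different ID blocks, and within the first block it gave 22 calls in FDB and 21 in EDL. The shares of all genes called without ns01 or within the first block were not computed. SOL had no 5-month mdx library in the first block, so its age change in mdx muscle cannot be told apart from the block.

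**Figure D5:**
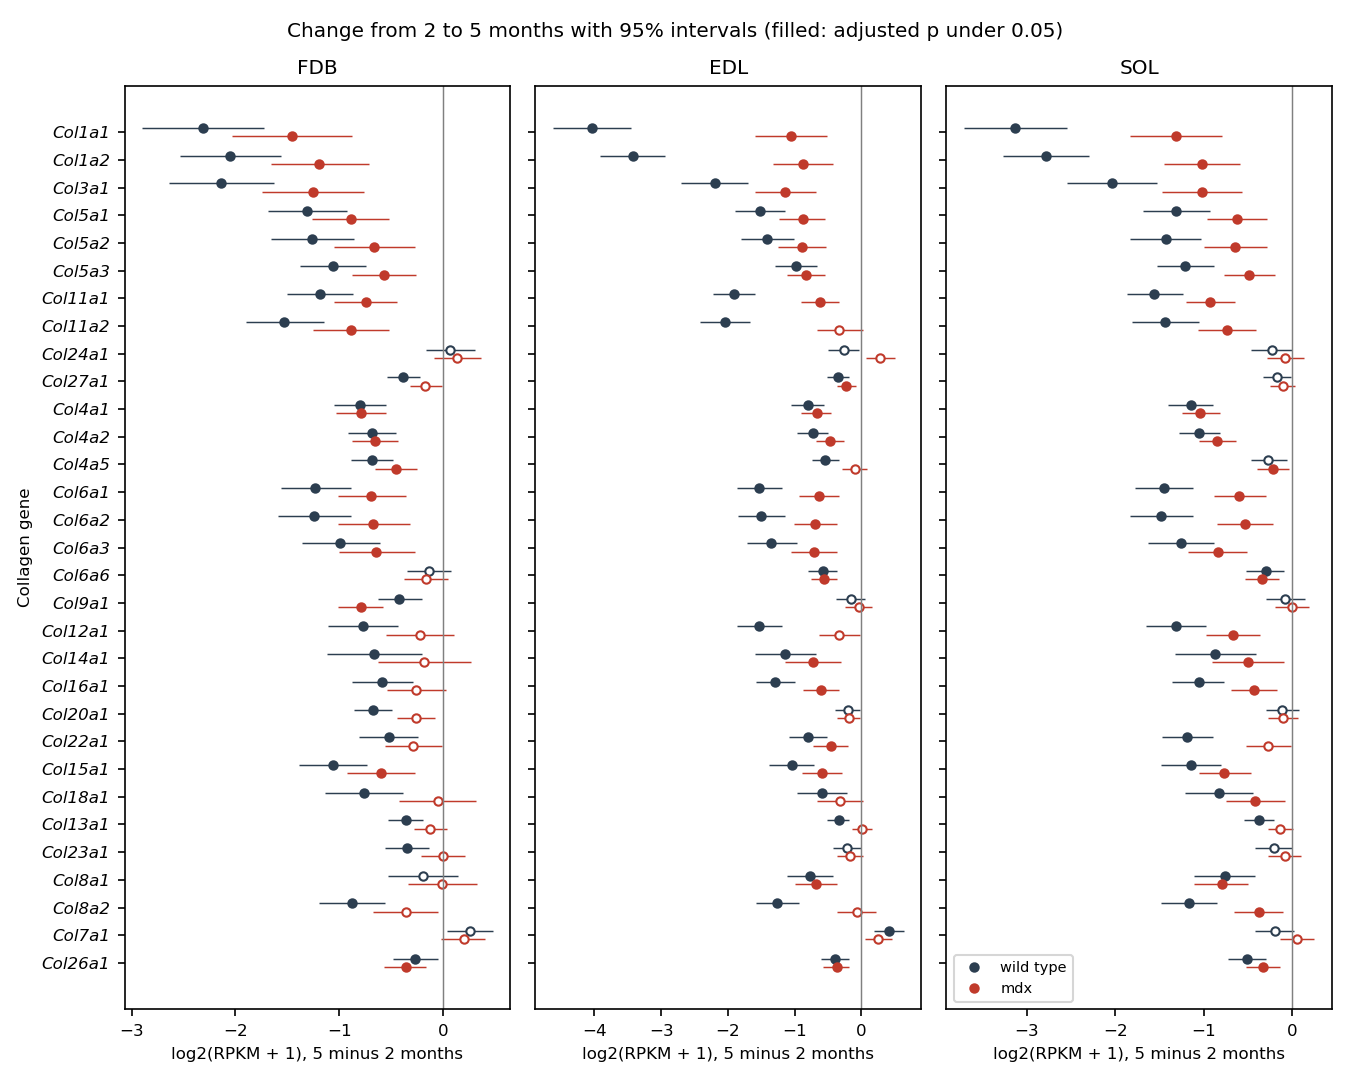
Change of each tested collagen chain from 2 to 5 months (log2 units, with 95% confidence intervals) in wild-type and mdx FDB, EDL and SOL, filled where the adjusted p was under 0.05. Most points lie below 0, and in EDL the wild-type points of Col1a1 (-4.04) and Col1a2 (-3.42) lie far below the mdx point of Col1a1 (-1.06).

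The test of genotype by age compares these changes directly. In EDL, 11 of the 31 chains had a larger mdx effect at 5 than at 2 months (35.5%, against 4.85% of all genes) and in SOL 12 (38.7%, against 11%), with none smaller (backgrounds 1.07% and 2.99%). In EDL the 3 smallest p belonged to Col1a2 (2.55 ± 0.327, adjusted p = 1.12e-06), Col1a1 (2.98 ± 0.395, adjusted p = 1.69e-06) and Col11a2 (1.72 ± 0.254, adjusted p = 1.38e-05). In SOL they belonged to Col1a2 (1.76 ± 0.323, adjusted p = 0.00047), Col22a1 (0.92 ± 0.19, adjusted p = 0.00154) and Col1a1 (1.82 ± 0.39, adjusted p = 0.00196). In FDB the limma test called 0 of 31 (backgrounds 0.989% and 0.351%), although 16 had an unadjusted p under 0.05, and Col1a1 stood at 0.86 ± 0.408 (adjusted p = 0.252). With estimated library weights FDB gave 22 calls and with the third ID block 11. The EDL and SOL counts depended on single libraries too, with 7 and 6 calls without the libraries ns47 and ns29. With the 5-month mdx libraries of the first block in EDL and of the second in SOL, the counts were 8 and 11. The share of all genes called was not computed for any of these settings, so the changed counts may not be particular to collagens. By block of the 5-month mdx libraries the Col1a1 value was 2.65 and 3.14 in EDL and 1.63 and 2.07 in SOL. As SOL had no 5-month mdx library in the first block, its genotype by age differences cannot be told apart from the block.

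Whether the mdx effect differed between muscles was tested by an F test. At 2 months 5 chains passed (16.1%, against 6.02% of all genes). Col24a1 rose more in EDL than in FDB (difference -0.81, adjusted p = 0.00194) and than in SOL (-0.73, adjusted p = 0.00765). Col22a1 differed between FDB and SOL by 0.82 (adjusted p = 0.0265), Col9a1 between SOL and EDL by 0.60 (adjusted p = 0.0206), and Col6a6 and Col14a1 between FDB and SOL by -0.66 and -1.22 (adjusted p = 0.0179 and 0.0467). Col9a1 in SOL and Col6a6 in FDB lay far below 1 RPKM, where changes are understated on the log2(RPKM + 1) scale. Their differences between muscles are therefore no measure of the proportional change. At 5 months 20 passed (64.5%, against 37.1%), led by Col24a1 (adjusted p = 3.34e-09), Col9a1 (1.41e-06) and Col6a6 (0.000679). For Col9a1 and Col6a6 the limit of the scale holds at this age too. With a pseudocount of 0.1 the Col9a1 difference between FDB and EDL changed sign. Col6a6 in FDB read 0.0168 to 0.0255 RPKM in wild type and 0.0319 to 0.074 in mdx. In EDL it read 0.736 to 1.44 RPKM in wild type and 1.45 to 3.05 in mdx. The mdx effect in FDB against EDL was lower in 10 chains and higher in 0 (backgrounds 11.3% and 7.14%), and against SOL lower in 12 and higher in 0 (12% and 13.7%). SOL was above EDL in 1 chain and below in 7 (6.28% and 12.7%). Col3a1 was among them, with -1.01 between FDB and EDL (adjusted p = 0.0208) and -1.23 between FDB and SOL (adjusted p = 0.00346). At 2 months these pairs gave 0 and 1 (FDB against EDL, backgrounds 2.14% and 3.19%), 1 and 2 (FDB against SOL, 0.925% and 0.63%) and 1 and 2 (SOL against EDL, 0.654% and 1.7%). The 5-month F count was 12 with the first or second ID block and 13 without ns29 and ns47 (shares of all genes not computed).

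Counts of other genes that make and handle collagen are read against all genes tested, of which 30%, 41.6% and 32.3% rose and 4.6%, 8.69% and 7.68% fell at 2 months in FDB, EDL and SOL, and 53.1%, 60.2% and 52.9% rose and 9.46%, 8.52% and 11.3% fell at 5 months. Of 18 genes that modify and fold the chains, all tested, 15, 13 and 14 rose at 2 months in FDB, EDL and SOL and 18, 14 and 15 at 5 months, with no fall, which is 72.2% to 83.3% and 77.8% to 100%. Serpinh1, the collagen chaperone Hsp47, rose by 0.44, 0.55 and 0.78, then 0.94, 0.95 and 1.03, and the lysyl hydroxylase Plod2 by 0.36 to 0.73. Of 15 tested of 19 genes for secretion, trimming and cross-linking, 11, 10 and 9, then 12, 12 and 12 rose (60% to 73.3%, then 80% each), and 0, 3 and 1, then 1, 1 and 2 fell. The cross-linking oxidase Loxl1 rose by 0.90, 1.18, 1.38, 1.18, 1.33 and 2.04 in that order, and Bmp1, which cuts procollagen, by 0.57 to 1.34, whereas Pcolce2, its enhancer, fell in EDL of 2 months (-0.64, adjusted p = 0.00321) and rose there at 5 months (0.41).

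Of 11 tested of 13 genes for degradation and uptake, 9, 7 and 9, then 10, 9 and 8 rose (63.6% to 81.8%, then 72.7% to 90.9%, against the same shares of all genes), and 0, 1 and 1, then 1, 2 and 2 fell. The collagenase Mmp14 rose by 0.87 to 2.24, the lysosomal protease Ctsk by 0.88 to 2.45 and the inhibitor Timp1 by 1.40 to 3.09, while Timp4 fell at 5 months, to differences of -1.19, -1.36 and -1.35. Of 7 tested of 9 collagen receptors, 5, 7 and 6, then 6, 7 and 5 rose (71.4% to 100% at either age) and none fell, among them the integrin Itga11 (0.49 to 1) and the kinase Ddr2 (0.49 to 0.98). Of 9 small proteoglycans that bind fibrils, 4, 3 and 5, then 8, 9 and 7 rose. Their 33.3% in EDL of 2 months lay below the 41.6% of all genes, and the other shares were 44.4% and 55.6% in FDB and SOL of 2 months and 77.8% to 100% at 5 months. Kera, a tendon and cornea proteoglycan, fell in EDL of 2 months (-0.76, adjusted p = 0.0295). Lum rose by 0.86 to 1.81 and Bgn by 0.53 to 1.78.

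Markers of cells that could carry these collagens moved as well, and their part in the results was not tested. All 7 fibroblast and progenitor markers were tested, and 7, 5 and 6 rose at 2 months (100%, 71.4% and 85.7%, against 30%, 41.6% and 32.3% of all genes) and 7, 7 and 7 at 5 months (100% each, against 53.1%, 60.2% and 52.9%). Their summed level in EDL was 189 to 216 RPKM in wild type and 275 to 330 in mdx at 2 months, and 103 to 132 and 164 to 279 at 5 months. In wild-type muscle 7, 6 and 5 of them fell with age (100%, 85.7% and 71.4%, against 27.3%, 21.2% and 13.7% of all genes). Of 7 tendon markers, 1, 1 and 1 rose and 0, 3 and 1 fell at 2 months, and 6, 7 and 4 rose at 5 months. The rises at 2 months were 14.3% in each muscle, below the share of all genes, and at 5 months the 57.1% in SOL was near the 52.9% of all genes, while FDB and EDL had 85.7% and 100%. The falls in EDL and SOL at 2 months were 42.9% and 14.3%, against 8.69% and 7.68%. Their sum in EDL was 211 to 232 RPKM in wild type and 196 to 241 in mdx at 2 months, then 14.9 to 77.8 and 132 to 270. In SOL the tendon sum was 140 to 206 and 178 to 225, then 9.93 to 76.9 and 94.1 to 148, and in FDB 252 to 424 and 429 to 553, then 150 to 198 and 324 to 462. With age 5, 6 and 7 of the tendon markers fell in wild-type FDB, EDL and SOL (71.4%, 85.7% and 100%). All 5 tested macrophage markers rose in all 6 comparisons, for example from 53.9 to 96.4 RPKM summed to 253 to 525 in EDL of 2 months. Of the 5 cartilage markers 1 was tested, and their sum was at most 10.4 RPKM in any library, beside the type IX and XI chains. In FDB of 5 months, where Col9a1 and Col18a1 differed by ID block, the mdx sums spanned 40.4 to 264 RPKM for smooth muscle, 38.1 to 77.5 for endothelial, 117 to 415 for Schwann cell and 16.6 to 112 for adipocyte markers.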

How the data were processed

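RNA sequencing of 55 libraries in 12 groups was used as the authors deposited it, in RPKM per gene, a unit scaled to gene length and to mapped reads. Per the file headers, reads were mapped with TopHat to mm10 and RPKM calculated in Partek. Versions in the submitters' processing notes are 1.8.2 for CASAVA, 2.1.0 for TopHat2 and 6.6 for Partek. Per the labels' protocols, RNA was extracted with Trizol and polyadenylated RNA was selected. Annotation, strandedness and the counting of multiply mapped reads were not given in the sources used here.

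The scale was log2(RPKM + 1), on which changes of low genes are understated, and genes under a mean of 0.5 RPKM were removed, leaving 12541 of 24453. One limma 3.58.1 model (R 4.3.3) held the 12 group means, with moderated variances and a trend. Contrasts were mdx minus wild type, 5 minus 2 months, genotype by age, and differences between muscles. Benjamini-Hochberg adjustment was made within each contrast over all genes tested, and genes under 0.05 were called higher or lower. Ratios of chains were tested by exact permutation. The model was tested on simulated data. The collagen genes, the lists and the tests were chosen with earlier results of these data known. Named with values per library were the chains of types I, III, IV and VI most abundant in muscle and the 2 largest rises and falls of each mdx comparison with a group mean of at least 1 RPKM; for the other contrasts the 3 smallest p were named, with further genes chosen after their values were seen. Alternatives were another pseudocount (0.1), other filters, median-of-ratios and quantile scaling, library weights, single ID blocks and each library left out.

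Depth was read from steps between low values of 3261 genes under 1500 bases. Between 74.3% and 85.5% of these values were whole reads to within 0.1. Because this recovery was only approximate, counts were not tested. All libraries differed in their values. Motifs were searched in RefSeq promoters, which were found for 35 of the 44 genes.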

Additional observations from a re-analysis of the deposited data

Results flagged for a closer look

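In wild-type SOL of 2 months, 1 library (ns25) stood far above the other 3 in Col1a1 (190 RPKM), Col3a1 (197 RPKM), Col6a1 (50.1 RPKM) and Col6a3 (13.4 RPKM). Its fibroblast marker sum of 209 RPKM and its tendon marker sum of 206 RPKM were also the highest of that group. At 5 months Col17a1 was far above the rest of its group in 1 mdx FDB library (ns57, 1.59 RPKM, the one with the skin markers) and below the rest in 1 wild-type FDB library (ns16, 0.0194 RPKM, against 0.0331 to 0.0355 in the other 3). Of 99 gene and group combinations examined over 9 genes, chance alone would single out about 1 in 20.

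The mdx effect differed between 2 and 5 months by the genotype by age test, in log2 units and always larger at 5 months. In EDL the difference was 2.98 for Col1a1, 2.55 for Col1a2, 1.72 for Col11a2, 1.29 for Col11a1, 1.20 for Col12a1, 1.19 for Col8a2, 0.89 for Col6a1, 0.82 for Col6a2, 0.68 for Col16a1, 0.55 for Col24a1 and 0.44 for Col4a5. In SOL it was 1.82 for Col1a1, 1.76 for Col1a2, 1.02 for Col3a1, 0.94 for Col6a2, 0.92 for Col22a1, 0.85 for Col6a1, 0.79 for Col8a2, 0.78 for Col5a2, 0.72 for Col5a3, 0.64 for Col12a1, and 0.63 for both Col16a1 and Col11a1. The type I chains led both muscles, and Col22a1 was called in SOL, where its mdx level was below wild type at 2 months and above it at 5. The SOL differences cannot be told apart from the ID block.

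The mdx effect differed between the muscles at 2 months, with limma F-test adjusted p of 0.00134 for Col24a1, 0.012 for Col22a1, 0.0152 for Col9a1, 0.0174 for Col6a6 and 0.0339 for Col14a1. At 5 months the adjusted p was 3.34e-09 for Col24a1, 1.41e-06 for Col9a1, 0.000679 for Col6a6, 0.00224 for Col4a2, 0.00239 for Col4a1, 0.00381 for Col14a1, 0.00405 for Col3a1, 0.00437 for Col11a1, 0.00498 for Col5a1 and 0.00778 for Col5a3. It was 0.00927 for Col6a2, 0.0136 for Col13a1, 0.0147 for Col11a2, 0.021 for Col1a1, 0.0253 for Col15a1, 0.0267 for Col12a1, 0.0268 for Col6a1, 0.0309 for Col5a2, 0.037 for Col4a5 and 0.0393 for Col8a1. Of these, Col24a1, Col9a1, Col6a6 and Col14a1 passed at both ages. The SOL part of the 5-month tests cannot be told apart from the ID block. Col9a1 in SOL and Col6a6 in FDB were so low that their changes there are understated on the log2 scale used. With a pseudocount of 0.1 the Col9a1 difference between FDB and EDL at 5 months changed sign.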

How the results depend on the processing

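No paired analysis was possible because the columns of the RPKM table carry no replicate numbers, so no replicate block could be fitted. Depth and small groups limit the chains near 0.5 RPKM, and the 5-month mdx groups mix ID blocks that hold no wild type. Of the 139 calls in the 6 mdx comparisons, 134 kept direction and threshold with a pseudocount of 0.1, 134 without the filter, 130 with median-of-ratios scaling and 118 with quantile scaling, and 77 of 80 at 5 months with the first or second block alone. Quantile scaling gave 7 in place of 12 genotype by age calls in SOL. With library weights the calls were 24 in place of 15 in FDB of 2 months, 22 in place of 0 for genotype by age in FDB and 23 in place of 5 for differences between muscles at 2 months. The third ID block alone gave 11 genotype by age calls in FDB and 17 in place of 11 in EDL. The first or second block gave 12 in place of 20 differences between muscles at 5 months. Without ns29 and ns47, a setting chosen after seeing the data, that count was 13, and the genotype by age counts were 7 in EDL and 6 in SOL. The shares of all genes called under these alternatives were not computed, so these counts alone show no change particular to collagens.

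Leaving out 1 library at a time gave 7 to 14 calls in FDB of 2 months (lowest without ns01), 9 to 18 for age in mdx FDB (lowest without ns01), 0 to 3 for genotype by age in FDB, and 7 to 13 in EDL (7 without ns34, ns41 or ns47) and 6 to 14 in SOL (6 without ns29, 7 without ns20 or ns25). Differences between muscles at 2 months numbered 3 to 7 (3 without ns02). For these fits, too, the shares of all genes called were not computed. Values that changed sign were Col9a1 in FDB against EDL at 5 months (0.21 with a pseudocount of 0.1, -0.44 as reported), and under quantile scaling Col20a1 in EDL of 2 months (-0.21) and in FDB and EDL of 5 months (-0.22 and -0.31), Col23a1 and Col7a1 in EDL of 5 months (-0.05 and -0.02) and Col4a5 in wild-type FDB against EDL and SOL at 2 months (-0.28 and -0.21). The age change of Col18a1 in mdx FDB became 0.32 with library weights and 0.41 with the third block, and that of Col23a1 -0.32 with the first block. The cause of these changes was not tested.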
